A study of Mus musculus with 15 samples.

Results

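Transcripts of the epidermal growth factor (EGF) family were followed in mouse skin injured with a blistering chemical. The family is represented by 10 genes, chosen by name: the 6 ligands Hbegf, Areg, Ereg, Tgfa, Btc and Epgn, the 3 receptors Egfr, Erbb2 and Erbb3, and Errfi1, an inhibitor of the receptors. Each was found by its Ensembl identifier among the 53700 genes of the count table, and all 10 were among the 22529 genes with enough reads to be tested. RNA came from whole dorsal skin of male SKH-1 hairless mice, 24 h after topical treatment, in 15 libraries of 5 groups with 3 libraries each. CEES skin received 2-chloroethyl ethyl sulfide, an analog of sulfur mustard, at 2 mg per mouse (500 µg per cm2). PAO skin received phenylarsine oxide, an arsenical, at 100 µg per mouse (25 µg per cm2). SNX-5422+CEES and SNX-5422+PAO skin received the same agent and, 15 min later on the injured area, the HSP90 inhibitor SNX-5422 at 20 mg/kg. Control skin received ethanol, the vehicle in which both agents were diluted. No group used here received the inhibitor without an agent.

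EGF family ligands are made as precursors anchored in the cell membrane, and metalloproteases, mainly ADAM17, cut them free to bind receptors on the same or neighbouring cells. In the epidermis, signalling through EGFR is known to drive keratinocytes to divide and migrate over a wound and to hold back their differentiation. ERBB2 has no ligand of its own and pairs with the other receptors, and ERBB3 binds neuregulins. The receptor proteins, ERBB2 above all, depend on the chaperone HSP90 for their stability. The present counts measure RNA and carry no information on receptor protein, shedding or signalling.

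Libraries held between 16838212 and 28887367 reads on genes. Levels are given in CPM, the reads of a gene per 1000000 gene reads of a library scaled by its TMM factor, and they are compared between groups for 1 gene at a time, never between genes. Defining transcripts of epidermis were present in every library: the 8 basal keratinocyte markers, such as Krt5 and Krt14, summed to 8959 to 10662 CPM in SNX-5422+CEES, 6540 to 7732 in CEES, 8541 to 8966 in SNX-5422+PAO, 8469 to 9081 in PAO and 7948 to 9820 in control libraries. Muscle and pancreas transcripts were present as well, and differed between groups, as the plot of summed markers shows. In bulk RNA, fewer cells of a type and less RNA per cell cannot be told apart. The labels do not state that each library came from its own animal, so p-values measure the spread between these libraries, which may be technical in part. Libraries of the groups given CEES carry codes 13 to 18 and those of the other groups codes 1 to 9. Any difference in handling between these sets therefore cannot be told apart from CEES itself. Pancreas markers divided along the same line, at 7.55 to 11.1 CPM in CEES and 24.0 to 145 CPM in SNX-5422+CEES libraries. They summed to 884 to 2587 CPM in control, 997 to 1601 CPM in PAO and 1601 to 2417 CPM in SNX-5422+PAO libraries. How pancreas transcripts came into libraries of skin was not tested.

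**Figure D1:**
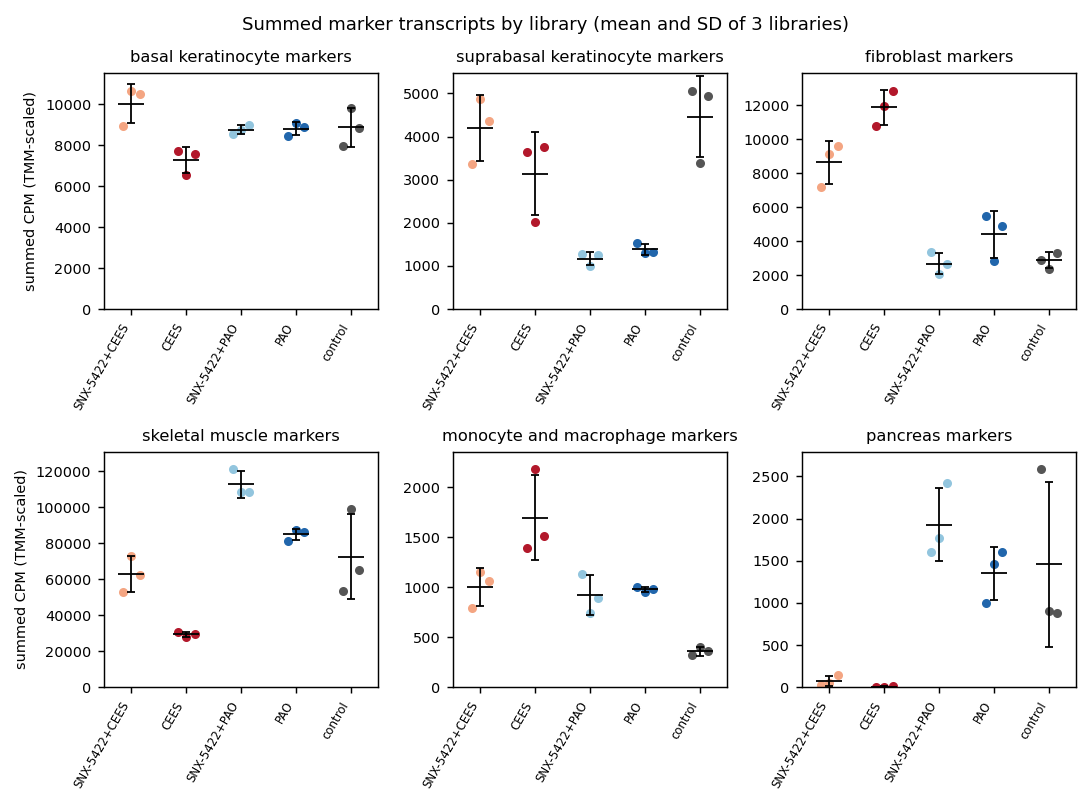
Summed CPM of 6 marker lists in each library (points), with the mean and SD of the 3 libraries of a group (bars), for SNX-5422+CEES, CEES, SNX-5422+PAO, PAO and control skin. Suprabasal keratinocyte markers lay at 1304 to 1538 CPM in PAO and 3385 to 5065 CPM in control libraries, and muscle markers at 27864 to 30621 CPM in CEES and 53786 to 98968 CPM in control libraries.

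Of the 6 ligand genes, 4 lie side by side on mouse chromosome 5 in the order Epgn, Ereg, Areg, Btc, with no other protein-coding gene of the RefSeq annotation between them. These neighbours did not move as a block, as described below. Promoters were at hand for 7 of the 10 genes. They are shown for Areg, Epgn and Errfi1, all 3 raised after CEES, because these hold the only matches found among the 8 promoters of those 7 genes. Each is the 250 bases before a RefSeq transcription start on GRCm38.p6, plus strand, read 5′ to 3′, and capitals mark matches to the motifs searched. The Errfi1 promoter is the second of a pair of annotated starts.
Areg, chr5:91139349-91139598: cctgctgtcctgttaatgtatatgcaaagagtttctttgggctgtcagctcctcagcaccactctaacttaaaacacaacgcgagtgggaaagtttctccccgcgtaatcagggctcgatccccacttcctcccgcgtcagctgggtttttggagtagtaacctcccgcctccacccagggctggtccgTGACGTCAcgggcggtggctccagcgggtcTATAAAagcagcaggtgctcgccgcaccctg
Errfi1, chr4:150854820-150855069: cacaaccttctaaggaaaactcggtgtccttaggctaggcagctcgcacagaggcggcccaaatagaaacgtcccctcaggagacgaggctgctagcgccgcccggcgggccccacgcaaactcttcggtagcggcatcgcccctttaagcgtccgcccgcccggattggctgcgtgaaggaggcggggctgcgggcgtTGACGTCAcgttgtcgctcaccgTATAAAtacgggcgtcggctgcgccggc
Epgn, chr5:91027267-91027516: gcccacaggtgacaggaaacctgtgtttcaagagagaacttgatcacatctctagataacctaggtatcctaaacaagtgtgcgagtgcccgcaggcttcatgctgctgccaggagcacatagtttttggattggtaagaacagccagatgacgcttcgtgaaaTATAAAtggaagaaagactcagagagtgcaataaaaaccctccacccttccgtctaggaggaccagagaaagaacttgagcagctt
The motifs searched on both strands were the AP-1 site TGANTCA, the cyclic AMP response element TGACGTCA, the heat shock element GAANNTTC, the EGR site GCGNGGGCG, the TATA box TATAAA and the NF-kB site, and no matches to different motifs overlapped in these 8 windows. Areg and the second Errfi1 start each held a TGACGTCA, beginning 61 and 51 bases before the start, and a TATAAA beginning 31 and 28 bases before it. Epgn held a TATAAA only, beginning 86 bases before its start. Among all 32851 promoter windows of this length, 1.55% held TGACGTCA, 12.4% held TATAAA, 6.75% held the AP-1 site, 6.69% the heat shock element, 4.7% the EGR site and 7.25% the NF-kB site. The Tgfa, Btc, Egfr and Erbb2 windows and the other Errfi1 start held none of these letters. A match describes the sequence and shows no binding.

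The first comparison asked which family genes differed in skin 24 h after PAO. The ligands Areg, Hbegf and Tgfa rose, the ligand Btc fell, and of the receptors Erbb3 fell. This made 5 of 10 genes called at an adjusted p under 0.05, against 20.4% of all genes tested, 3 of them raised (11.9% of all genes) and 2 lowered (8.58%). The median log2 fold change of the 10 genes was -0.22, and that of all genes tested was -0.0040.

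The same question for CEES gave more changes. The ligands Areg, Tgfa, Epgn, Hbegf and Ereg and the inhibitor Errfi1 rose, and Btc, Erbb2 and Erbb3 fell. Thus 9 of 10 genes were called, against 33.9% of all genes tested, 6 raised (17.8% of all genes) and 3 lowered (16.2%). The median log2 fold change was 0.60 for the 10 genes and -0.036 for all genes. Egfr, the receptor of all 6 ligands, was the gene not called.

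**Figure D2:**
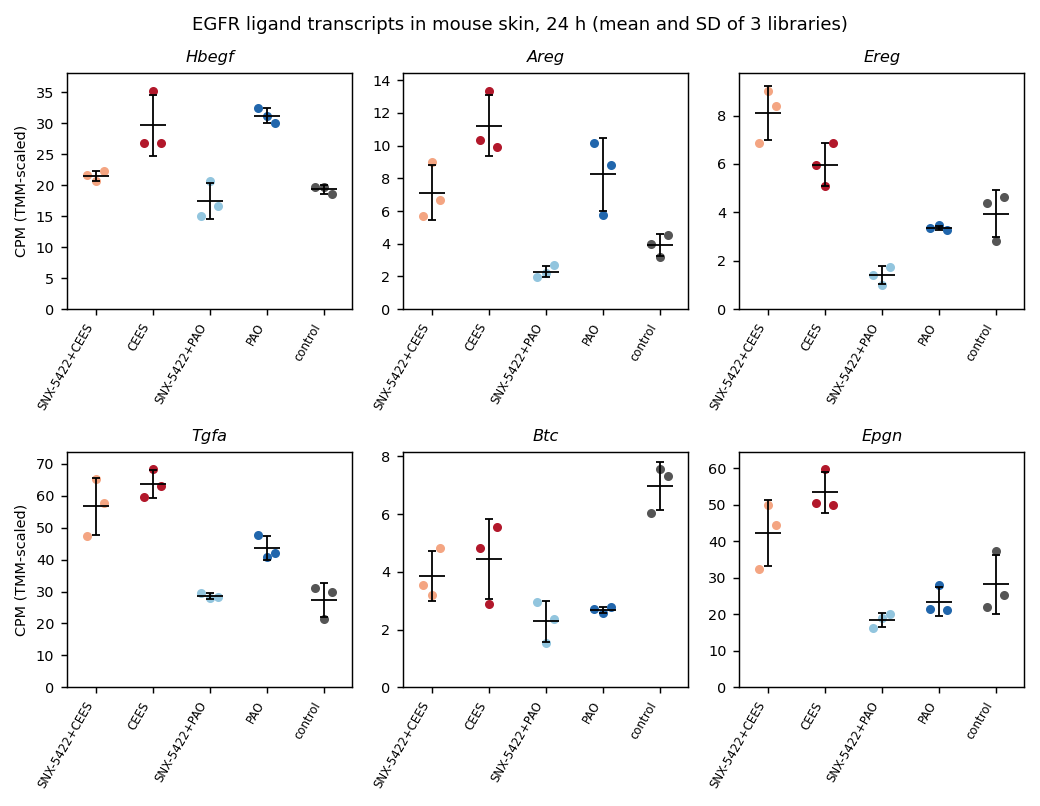
CPM of the 6 ligand genes in each library (points) with the mean and SD of 3 libraries (bars) in SNX-5422+CEES, CEES, SNX-5422+PAO, PAO and control skin; each panel has its own axis starting at 0. Areg averaged 11.2 ± 1.87 CPM in CEES and 8.24 ± 2.25 CPM in PAO skin, against 3.92 ± 0.671 CPM in control skin, and Btc was highest in control skin.

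Areg encodes amphiregulin, an EGFR ligand that keratinocytes make and use themselves. It had 10.3, 13.4 and 9.93 CPM in the CEES libraries, 10.2, 5.77 and 8.80 CPM in the PAO libraries and 4.01, 3.20 and 4.54 CPM in the control libraries. Every library of an agent alone lay above every control library. Areg rose 2.85-fold after CEES (log2 fold change 1.51 ± 0.22, SE; adjusted p = 8.12e-05) and 2.10-fold after PAO (1.07 ± 0.23, adjusted p = 0.00335). The CEES and PAO libraries overlapped, and CEES minus PAO was 0.44 ± 0.22 (adjusted p = 0.179).

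Tgfa encodes transforming growth factor alpha, the classical autocrine ligand of keratinocytes. It had 59.6, 68.4 and 62.9 CPM after CEES, 47.9, 40.9 and 42.0 CPM after PAO and 31.1, 21.3 and 30.0 CPM in control skin. The 3 groups did not overlap and stood in that order from high to low. Tgfa rose by 1.21 ± 0.13 on the log2 scale after CEES (adjusted p = 5.18e-06) and by 0.67 ± 0.13 after PAO (adjusted p = 0.00227), and was higher after CEES than after PAO by 0.54 ± 0.13 (adjusted p = 0.00866). That last call ended with the share of muscle markers as a covariate (0.25, adjusted p = 0.585) and with that of mitochondrial ribosomal RNA (0.45, 0.184).

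Hbegf encodes heparin-binding EGF-like growth factor, known to promote keratinocyte migration in wounds. Its libraries held 26.8, 35.3 and 26.9 CPM after CEES, 32.5, 31.1 and 30.1 CPM after PAO and 19.8, 19.7 and 18.6 CPM in control skin. All 6 libraries of an agent alone were above the control libraries, and the CEES and PAO libraries overlapped. Hbegf rose 1.54-fold after CEES (0.62 ± 0.12, adjusted p = 0.00104) and 1.62-fold after PAO (0.69 ± 0.12, adjusted p = 0.000951). The 95% interval of CEES minus PAO ran from -0.33 to 0.19.

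Epgn encodes epigen, a ligand of EGFR with low affinity. It had 50.4, 59.7 and 49.9 CPM after CEES, 21.3, 27.9 and 21.0 CPM after PAO and 22.0, 37.2 and 25.4 CPM in control skin. The CEES libraries stood above all others of these groups, while the PAO and control libraries overlapped. Epgn rose after CEES (0.92 ± 0.18, adjusted p = 0.00109) and stood at -0.27 ± 0.19 after PAO (adjusted p = 0.347). The difference between the agents passed the test, CEES minus PAO being 1.19 ± 0.19 (adjusted p = 0.000417).

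Ereg encodes epiregulin, which binds EGFR and ERBB4. Its counts were low, with 17 to 231 reads per library. CEES libraries held 5.94, 5.09 and 6.86 CPM, PAO libraries 3.33, 3.46 and 3.29 CPM and control libraries 4.38, 2.83 and 4.63 CPM. CEES stood above control without overlap, and the 3 PAO libraries lay within the range of the control libraries. Ereg rose after CEES (0.59 ± 0.21, adjusted p = 0.0376), stood at -0.24 ± 0.22 after PAO (adjusted p = 0.482), and was higher after CEES than after PAO (0.83 ± 0.21, adjusted p = 0.0125). The first of these calls ended without control 2, CEES 1, CEES 3 or SNX-5422+CEES 3 (adjusted p = 0.0503 to 0.142), and the last without CEES 3 (0.0579). The CEES call against control also ended with upper-quartile scaling (0.0647) and in a fit of the 2 groups alone (0.0636), and the call against PAO with the muscle covariate (0.41, adjusted p = 0.596) and the mitochondrial covariate (0.72, 0.225).

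Btc encodes betacellulin, which also binds EGFR and ERBB4, and it was the ligand lower after both agents. It had 4.85, 2.89 and 5.57 CPM after CEES, 2.72, 2.56 and 2.78 CPM after PAO and 6.04, 7.57 and 7.32 CPM in control skin, from 26 to 226 reads per library. Control libraries were above all others, and the PAO libraries were the lowest of these 3 groups. Btc fell 2.59-fold after PAO (-1.37 ± 0.26, adjusted p = 0.00134) and 1.58-fold after CEES (-0.66 ± 0.24, adjusted p = 0.0477). The CEES call was fragile: it ended without any 1 of 9 libraries (control 2 and 3, PAO 1, 2 and 3, SNX-5422+PAO 3, CEES 1 and 2, SNX-5422+CEES 1; adjusted p = 0.0514 to 0.198, with a log2 fold change of -0.42 without CEES 2). It also ended with total counts (0.117), RLE scaling (0.0518), DESeq2 (0.0502) and a fit of the 2 groups alone (0.0616). Suprabasal keratinocyte markers summed to 2030 to 3756 CPM in CEES, 1304 to 1538 CPM in PAO and 3385 to 5065 CPM in control libraries, and pancreas markers to 7.55 to 11.1, 997 to 1601 and 884 to 2587 CPM in the same groups. None of the 8 suprabasal or 9 pancreas markers was at 0 over any group. The part of either in the fall of Btc was not tested.

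**Figure D3:**
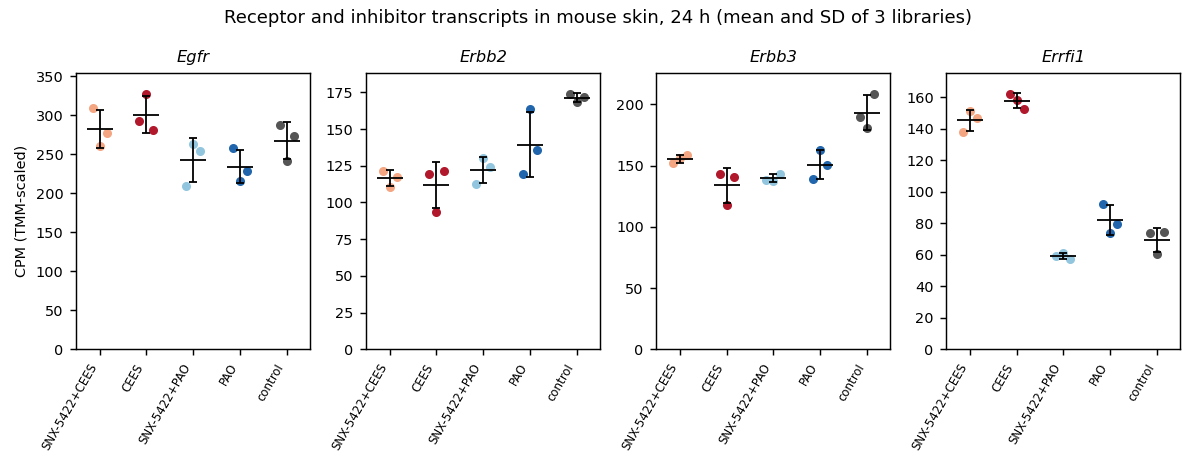
CPM of the receptor genes Egfr, Erbb2 and Erbb3 and of Errfi1 in each library (points) with the mean and SD of 3 libraries (bars), in the same 5 groups; each axis starts at 0. Errfi1 averaged 158 ± 4.85 CPM in CEES skin, against 69.5 ± 7.84 CPM in control skin, and Erbb2 and Erbb3 were highest in control skin.

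Among the receptors, Egfr had 293, 328 and 282 CPM after CEES, 258, 216 and 229 CPM after PAO and 288, 242 and 274 CPM in control skin, and both agent groups overlapped control. It stood at 0.17 ± 0.10 after CEES (95% interval -0.05 to 0.39, adjusted p = 0.231) and at -0.19 ± 0.10 after PAO (-0.41 to 0.03, adjusted p = 0.218). The agents differed from each other, CEES minus PAO being 0.36 ± 0.10 without overlap (adjusted p = 0.0239), a call that ended without PAO 2, PAO 3 or CEES 2 (adjusted p = 0.0677 to 0.0977) and that turned to -0.034 with the muscle marker share as a covariate (adjusted p = 0.168 with the mitochondrial one). Over all 15 libraries Egfr had the narrowest range of group means among the 10 genes, 0.36 on the log2 scale.

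Erbb2 encodes the receptor without a ligand of its own. Its libraries held 119.6, 93.8 and 122 CPM after CEES, 119, 163 and 136 CPM after PAO and 174, 168 and 172 CPM in control skin. Every library of either agent was below every control library. The fall passed the test after CEES (-0.62 ± 0.11, adjusted p = 0.000474), and the PAO value of -0.30 ± 0.11 did not (adjusted p = 0.0708), although without PAO 2 it was -0.44 and was called (adjusted p = 0.0103), as it was without CEES 2 (0.0393) and by DESeq2 (0.0498).

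Erbb3 encodes the neuregulin receptor, whose own kinase is weak. It had 143, 118 and 141 CPM after CEES, 139, 163 and 151 CPM after PAO and 189.9, 181 and 209 CPM in control skin, again with all agent libraries below all control libraries. Erbb3 fell 1.44-fold after CEES (-0.53 ± 0.09, adjusted p = 0.000181) and 1.28-fold after PAO (-0.36 ± 0.09, adjusted p = 0.0074). Schwann cells and melanocytes, which also make ERBB3, had markers summing to 123 to 155 CPM after CEES, 109 to 142 CPM after PAO and 159 to 224 CPM in control skin, with none of the 7 markers at 0 over a group. In SNX-5422+PAO skin, where Erbb3 also fell against control, they summed to 195 to 252 CPM, not below control, and in SNX-5422+CEES skin to 136 to 177 CPM.

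Errfi1 encodes MIG6, which is induced by EGFR signalling and binds and blocks the receptor's kinase. It had 162, 158 and 153 CPM after CEES, 92.5, 73.8 and 79.6 CPM after PAO and 73.6, 60.4 and 74.4 CPM in control skin. The 3 CEES libraries were all far above the others, and the PAO libraries overlapped control at their low end. Errfi1 rose 2.27-fold after CEES (1.18 ± 0.09, adjusted p = 2.37e-07), the smallest p of the family in this comparison. After PAO it stood at 0.24 ± 0.09 (adjusted p = 0.0819, 0.0389 without PAO 2), and the agents differed by 0.95 ± 0.09 (adjusted p = 7.58e-06).

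Without overlap between the libraries compared were 9 of 10 genes for CEES against control (47.5% of all genes) and 6 of 10 for PAO against control (35.9%). In CEES against PAO, 5 of 10 genes were called, all raised (18.9% of all genes called, 9.86% raised, 9.02% lowered), namely Epgn, Errfi1, Ereg, Tgfa and Egfr, and 6 of 10 did not overlap (37.1% of all genes). Btc was called as higher there too without SNX-5422+PAO 2 (0.74, adjusted p = 0.0451) or CEES 2 (0.95, 0.0161), and Erbb2 as lower without PAO 1 (-0.39, 0.0264). With the muscle marker share as a covariate, the CEES calls against control ended for Hbegf (0.48, adjusted p = 0.146), Ereg (0.20, 0.743) and Btc (-0.26, 0.715). With the share of mitochondrial ribosomal RNA in the model instead, the PAO call ended for Btc (-0.95, 0.0863). Total counts in place of TMM gave 3 raised and 5 lowered after PAO. Over all 22529 genes they gave 1436 raised and 4340 lowered, with a median shift of -0.21.

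The next comparisons asked what SNX-5422 changed in skin given an agent. After PAO, the inhibitor group had lower Areg, Ereg, Hbegf and Tgfa and lower Errfi1 than PAO alone. Thus 5 of 10 genes fell and 0 rose, against 5.96% of all genes called, 3.39% lowered and 2.57% raised. The receptor genes Egfr, Erbb2 and Erbb3 were not called. The median log2 fold change was -0.41 for the 10 genes and -0.0089 for all genes.

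After CEES, 1 of 10 genes was called, a fall of Hbegf, against 7% of all genes called and 3.46% lowered. The median was -0.14 for the 10 genes and 0.011 for all genes. At an unadjusted p under 0.05 stood Hbegf and Areg as lower and Ereg and Erbb3 as higher. Libraries did not overlap for 6 of 10 genes in SNX-5422+CEES against CEES (26% of all genes) and for 6 of 10 in SNX-5422+PAO against PAO (23.9%).

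**Figure D4:**
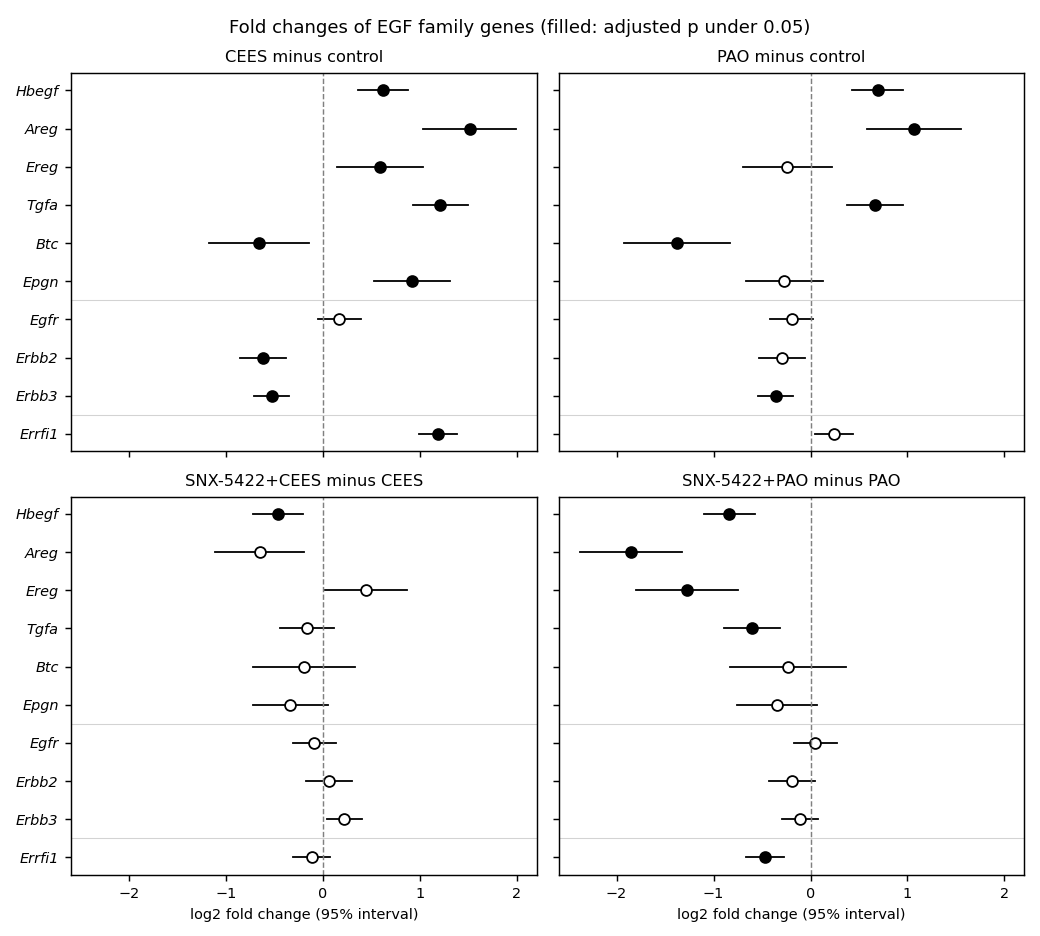
Log2 fold changes of the 10 genes with 95% intervals for CEES and PAO against control (top) and for SNX-5422 after each agent against that agent alone (bottom); filled points had an adjusted p under 0.05. Areg changed by -1.85 in SNX-5422+PAO against PAO, and the intervals of Egfr included 0 in all 4 comparisons.

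Areg showed the largest difference of the family in SNX-5422+PAO against PAO. It had 1.99, 2.19 and 2.69 CPM in SNX-5422+PAO libraries, against 10.2, 5.77 and 8.80 CPM in PAO libraries. The groups did not overlap, and Areg fell 3.61-fold (-1.85 ± 0.25, adjusted p = 0.000628). All 3 SNX-5422+PAO libraries were also below the control libraries, and against control Areg fell by 0.78 ± 0.25 on the log2 scale (adjusted p = 0.04). The call against control ended without control 1, control 3, SNX-5422+PAO 1, SNX-5422+PAO 2, CEES 1 or SNX-5422+CEES 3 (adjusted p = 0.05 to 0.155), with the muscle covariate (0.182), with the mitochondrial covariate (0.483), with the replicate numbers as a block (0.057) and in a fit of the 2 groups alone (0.0516).

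In SNX-5422+CEES libraries Areg had 5.72, 8.99 and 6.66 CPM, against 10.3, 13.4 and 9.93 CPM in CEES libraries. These too did not overlap, and the difference of -0.65 ± 0.22 did not pass the test (adjusted p = 0.0842, 0.0411 by DESeq2 and 0.0356 without PAO 2). SNX-5422+CEES skin stayed above control for Areg (0.86 ± 0.23, adjusted p = 0.0121, 0.078 without SNX-5422+CEES 2). The difference between the inhibitor's effects, CEES minus PAO, was 1.20 ± 0.33 (adjusted p = 0.099, 0.0327 by DESeq2 and 0.0441 without PAO 2). Fibroblast markers summed to 2065 to 3340 CPM in SNX-5422+PAO and 2847 to 5474 CPM in PAO libraries. In SNX-5422+CEES and CEES libraries they summed to 7215 to 9619 and 10790 to 12858 CPM. Basal keratinocyte markers summed to 8541 to 8966 CPM in SNX-5422+PAO and 8469 to 9081 CPM in PAO libraries. The part of either list in the Areg values was not tested.

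Hbegf was the gene called after both agents. SNX-5422+PAO libraries had 15.0, 20.8 and 16.7 CPM, against 32.5, 31.1 and 30.1 CPM in PAO libraries, and SNX-5422+CEES libraries 21.6, 20.6 and 22.3 CPM, against 26.8, 35.3 and 26.9 CPM in CEES libraries. Neither pair overlapped. Hbegf fell 1.78-fold with the inhibitor after PAO (-0.84 ± 0.13, adjusted p = 0.00152) and 1.38-fold after CEES (-0.46 ± 0.12, adjusted p = 0.0313). The CEES call ended without CEES 2 or any 1 SNX-5422+CEES library (adjusted p = 0.0682 to 0.162) and with the muscle covariate (0.323). Against control, Hbegf stood at -0.14 ± 0.13 in SNX-5422+PAO and 0.16 ± 0.12 in SNX-5422+CEES skin, neither called (adjusted p = 0.468 and 0.406). With total counts in place of TMM, Hbegf in SNX-5422+PAO skin was at -0.48 against control and was called (0.0109), where the median of all genes moved by -0.33.

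Ereg was the ligand whose response to the inhibitor differed between the agents by the test of that difference. It had 1.42, 1.01 and 1.75 CPM in SNX-5422+PAO libraries, against 3.33, 3.46 and 3.29 CPM in PAO libraries, and 6.87, 9.03 and 8.39 CPM in SNX-5422+CEES libraries, against 5.94, 5.09 and 6.86 CPM in CEES libraries. All SNX-5422+PAO libraries were the lowest and all SNX-5422+CEES libraries the highest of the 5 groups. Ereg fell by 1.27 ± 0.25 on the log2 scale with the inhibitor after PAO (adjusted p = 0.00678), and stood at 0.44 ± 0.20 after CEES (adjusted p = 0.232). The difference between these effects was 1.71 ± 0.32 and passed the test (adjusted p = 0.0231), the 1 gene of 10 to do so, against 0.737% of all genes called and 0.55% with a positive difference. That call ended without PAO 3, SNX-5422+PAO 2, CEES 1, SNX-5422+CEES 2 or SNX-5422+CEES 3 (adjusted p = 0.0559 to 0.0687). Against control, Ereg fell in SNX-5422+PAO skin (-1.51 ± 0.24, adjusted p = 0.000535, 0.0534 with the mitochondrial covariate) and rose in SNX-5422+CEES skin (1.03 ± 0.21, adjusted p = 0.00191).

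Tgfa had 29.6, 27.9 and 28.4 CPM in SNX-5422+PAO libraries, against 47.9, 40.9 and 42.0 CPM in PAO libraries, with no overlap, and fell 1.52-fold (-0.61 ± 0.14, adjusted p = 0.0144). The call ended without PAO 1, SNX-5422+PAO 2 or SNX-5422+PAO 3 (adjusted p = 0.0539 to 0.0618) and with the muscle covariate (0.0791). With 47.3, 65.1 and 57.8 CPM in SNX-5422+CEES libraries, Tgfa overlapped CEES and stood at -0.17 ± 0.13 (95% interval -0.44 to 0.11, adjusted p = 0.553). It was above control in SNX-5422+CEES skin (1.05 ± 0.13, adjusted p = 5.63e-05) and at 0.06 ± 0.14 in SNX-5422+PAO skin (adjusted p = 0.802).

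Errfi1, the receptor inhibitor, did not overlap between inhibitor and agent alone in either pair. SNX-5422+PAO libraries held 59.2, 60.9 and 57.5 CPM, against 92.5, 73.8 and 79.6 CPM in PAO libraries, and the fall of 1.38-fold passed the test (-0.47 ± 0.09, adjusted p = 0.00802). SNX-5422+CEES libraries held 138, 151 and 147 CPM, against 162, 158 and 153 CPM in CEES libraries, a difference of -0.12 ± 0.09 that was not called (adjusted p = 0.547). Against control, Errfi1 rose in SNX-5422+CEES skin (1.07 ± 0.09, adjusted p = 3.02e-06) and stood at -0.23 ± 0.09 in SNX-5422+PAO skin (adjusted p = 0.0977, 0.0146 without control 2 and 0.0487 without PAO 1).

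Epgn and Btc were not called between the inhibitor and the agent alone. Epgn had 16.2, 18.9 and 20.1 CPM in SNX-5422+PAO and 32.4, 49.9 and 44.4 CPM in SNX-5422+CEES libraries, and stood at -0.35 ± 0.19 against PAO (adjusted p = 0.346) and -0.34 ± 0.18 against CEES (adjusted p = 0.334). Both values were negative and the libraries of neither pair overlapped. For CEES this was by a small margin, with the highest SNX-5422+CEES library at 49.87 CPM and the lowest CEES library at 49.89 CPM. Against control, Epgn fell in SNX-5422+PAO skin (-0.61 ± 0.19, adjusted p = 0.0336). It rose in SNX-5422+CEES skin (0.58 ± 0.18, adjusted p = 0.032), whose libraries overlapped control. Both calls were fragile. The first ended without control 2 (-0.38), control 3 or any 1 SNX-5422+PAO library (adjusted p = 0.0509 to 0.128), the second without control 1, control 3, SNX-5422+CEES 2 or SNX-5422+CEES 3 (0.0998 to 0.152), and each in a fit of its 2 groups alone (0.0585 and 0.0805).

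Btc had 2.96, 1.54 and 2.36 CPM in SNX-5422+PAO libraries and 3.54, 3.20 and 4.84 CPM in SNX-5422+CEES libraries. The differences from the agent alone were -0.23 ± 0.28 after PAO (adjusted p = 0.714) and -0.20 ± 0.25 after CEES (adjusted p = 0.743), with overlap in each. Btc was below control in SNX-5422+PAO skin (-1.61 ± 0.26, adjusted p = 0.000671, 0.142 with the mitochondrial covariate) and in SNX-5422+CEES skin (-0.86 ± 0.25, adjusted p = 0.0195), the call in SNX-5422+CEES skin ending without control 3, SNX-5422+CEES 1 or SNX-5422+CEES 2 (adjusted p = 0.0522 to 0.0911).

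None of the receptor genes was called between inhibitor and agent alone. Egfr had 210.0, 263 and 254 CPM in SNX-5422+PAO and 309, 261 and 278 CPM in SNX-5422+CEES libraries, and its log2 differences from the agent alone had 95% intervals of -0.17 to 0.27 and -0.31 to 0.13. Erbb2, the best-known HSP90 client of the family at the protein level, had 113, 130.1 and 124 CPM in SNX-5422+PAO and 121, 111 and 117 CPM in SNX-5422+CEES libraries, with intervals of -0.43 to 0.05 and -0.18 to 0.30. Both of these genes overlapped between inhibitor and agent alone. Erbb3 had 138, 137 and 143 CPM in SNX-5422+PAO libraries, where it overlapped PAO (-0.29 to 0.07), and 152, 156 and 158 CPM in SNX-5422+CEES libraries, above all CEES libraries (0.04 to 0.40, adjusted p = 0.157). Basal keratinocyte markers stood apart in the same way, at 8959 to 10662 CPM in SNX-5422+CEES and 6540 to 7732 CPM in CEES libraries, and their part in the Erbb3 values was not tested.

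Set against control, SNX-5422+PAO skin had 6 of 10 genes lowered and 0 raised (19.3% of all genes called, 8.66% lowered), namely Areg, Ereg, Btc, Epgn, Erbb2 and Erbb3, with 6 of 10 not overlapping (34.7% of all genes). SNX-5422+CEES skin had 5 raised and 3 lowered (22.3% called, 13.1% raised, 9.25% lowered), with 8 of 10 not overlapping (37.7% of all genes). Erbb2 fell in SNX-5422+PAO skin (-0.49 ± 0.11, adjusted p = 0.00682, 0.0535 with the muscle covariate) and SNX-5422+CEES skin (-0.56 ± 0.11, adjusted p = 0.00196). Erbb3 fell in both too (-0.47 ± 0.09 and -0.31 ± 0.09, adjusted p = 0.00153 and 0.0153), and the second call ended without control 3 (0.0883). Comparisons of an agent with control and of inhibitor with that agent share the agent's libraries. Mitochondrial ribosomal RNA took 5.72 to 17.7% of gene reads, most in the groups given PAO, and as a covariate it left 3 of the 6 genes called in SNX-5422+PAO against control.

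Other parts of the pathway were followed through lists. Of the 5 tested genes among Egf, Nrg1, Nrg2, Nrg3, Nrg4 and Erbb4, Nrg1, which encodes a neuregulin that binds ERBB3, rose after CEES to 71.7 ± 15.4 CPM, against 16.3 ± 3.54 CPM in control (2.14 ± 0.16, adjusted p = 1.58e-07), and after PAO to 36.0 ± 2.38 CPM (1.15 ± 0.16, adjusted p = 0.00011). In that list 1 gene rose and 3 fell after CEES (17.8% and 16.2% of all genes). Among those that fell was Erbb4 (-2.28 ± 0.47), at a low level of 0.583 ± 0.367 CPM in CEES and 2.83 ± 0.601 CPM in control skin. After PAO 1 gene of the list rose and 1 fell (11.9% and 8.58%), the one that fell being Nrg4 (-0.95 ± 0.23). Fibroblast markers summed to 10790 to 12858 CPM in CEES, 2847 to 5474 CPM in PAO and 2380 to 3315 CPM in control libraries, and their part in the rise of Nrg1 was not tested. With SNX-5422 after PAO, 1 of 5 genes was called, against 5.96% of all genes. The gene was Egf, which was higher (0.85 ± 0.19, adjusted p = 0.0158). It averaged 33.0 ± 1.84 CPM in SNX-5422+PAO and 18.3 ± 2.31 CPM in PAO skin. Muscle markers summed to 108374 to 121289 CPM in SNX-5422+PAO and 81340 to 87196 CPM in PAO libraries. Their part in the Egf difference was not tested.

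Of 8 genes of ligand shedding, 4 rose and 2 fell after CEES (17.8% and 16.2% of all genes), and 4 rose and 2 fell after PAO (11.9% and 8.58%). The metalloprotease gene Adam9 rose by 1.35 ± 0.15 after CEES and 0.81 ± 0.15 after PAO, and Adam12 by 1.06 ± 0.21 and 1.07 ± 0.21. Rhbdf2, which encodes iRhom2, the partner that carries ADAM17 to the cell surface, fell by 0.35 ± 0.09 after CEES and 0.26 ± 0.09 after PAO. Adam17 itself did not fall, with 97.2 ± 6.51 CPM in CEES, 78.0 ± 2.30 CPM in PAO and 71.8 ± 2.08 CPM in control skin. After PAO it was not called (0.12 ± 0.09, adjusted p = 0.356). With SNX-5422 after PAO 2 of 8 fell and 0 rose (3.39% and 2.57% of all genes). These were Adam12 (-1.09 ± 0.21, 14.2 ± 3.08 CPM in SNX-5422+PAO and 30.3 ± 7.85 CPM in PAO skin) and Rhbdf2 (-0.34 ± 0.09). After CEES the inhibitor left 0 of 8 called by edgeR, where 7% of all genes were called. Adam9 and Adam17 stood there at an unadjusted p under 0.05, both lower. Adam17 averaged 85.0 ± 4.76 CPM in SNX-5422+CEES and 97.2 ± 6.51 CPM in CEES skin. The cells that hold these transcripts were not separated here.

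Among 21 adaptor and kinase genes below the receptors, 8 rose and 1 fell after CEES (17.8% and 16.2% of all genes), with a median log2 fold change of -0.038 beside -0.036 for all genes. After PAO 8 rose and 0 fell (11.9% and 8.58% of all genes; median 0.11). Map2k1, which encodes the kinase MEK1, rose by 0.91 ± 0.12 and 0.81 ± 0.12, and the transcription factor gene Stat3 by 0.63 ± 0.08 and 0.69 ± 0.08. Stat3 was lower with SNX-5422 after PAO (241 ± 23.6 CPM in SNX-5422+PAO, 348 ± 10.5 CPM in PAO skin, adjusted p = 0.0015). It was the 1 gene of 21 called there, where 5.96% of all genes were called. Src was the 1 gene of 21 called with the inhibitor after CEES (-0.35 ± 0.08, adjusted p = 0.0159), where 7% of all genes were called. Neither count stood above its background.

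Among 12 genes that ERK signalling is known to induce, 9 rose and 0 fell after CEES (17.8% and 16.2% of all genes; median log2 fold change 0.68), and 8 rose and 1 fell after PAO (11.9% and 8.58%; median 0.54). Plaur, the urokinase receptor gene, rose to 44.2 ± 12.9 CPM in CEES, against 8.31 ± 1.05 CPM in control skin (2.40 ± 0.20, adjusted p = 3.11e-07), and Fos rose by 1.37 ± 0.14 after CEES and 1.15 ± 0.14 after PAO. Egr1 was the gene lower after PAO (-0.55 ± 0.17, adjusted p = 0.0314). With SNX-5422 after CEES 6 of 12 fell and 0 rose (3.46% and 3.54% of all genes; median -0.53). Plaur was at 16.9 ± 1.83 CPM in SNX-5422+CEES and 44.2 ± 12.9 CPM in CEES skin (-1.39 ± 0.19, adjusted p = 0.000546), and Fos at 39.0 ± 4.19 and 88.4 ± 16.8 CPM in the same groups (-1.18 ± 0.14, adjusted p = 0.000233). With SNX-5422 after PAO 3 of 12 fell and 0 rose (3.39% and 2.57% of all genes; median -0.23), among them Ier3 (-0.82 ± 0.16) and Myc (-0.50 ± 0.10). These genes are induced by other pathways as well, and monocyte and macrophage markers moved in the same direction after CEES, at 791 to 1158 CPM in SNX-5422+CEES, 1397 to 2185 CPM in CEES and 319 to 408 CPM in control libraries. Their part was not tested.

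Of 20 genes that restrain the receptors or ERK, 8 rose and 4 fell after CEES (17.8% and 16.2% of all genes). After PAO 4 rose and 1 fell, 5 of 20 called where 20.4% of all genes were, a share near that background. Ptprj, a receptor phosphatase gene, rose by 1.31 ± 0.13 and 0.77 ± 0.13, and Dusp6, the gene of an ERK phosphatase that ERK itself induces, rose after PAO (99.1 ± 13.5 CPM in PAO, 57.4 ± 3.37 CPM in control skin, 0.79 ± 0.10, adjusted p = 7.52e-05). Lrig3 fell by 0.77 ± 0.13 after CEES and 0.42 ± 0.13 after PAO, and Lrig1, whose product marks EGFR for degradation, fell by 0.59 ± 0.16 after CEES. With the inhibitor after PAO 3 of 20 fell and 0 rose (3.39% and 2.57% of all genes), among them Dusp6 (64.2 ± 6.59 CPM in SNX-5422+PAO, 99.1 ± 13.5 CPM in PAO skin, -0.63 ± 0.10, adjusted p = 0.00246) and Dusp5 (-0.69 ± 0.15). With the inhibitor after CEES 3 of 20 fell and 0 rose (3.46% and 3.54% of all genes), among them Dusp5 (-0.61 ± 0.14, adjusted p = 0.0144) and Socs5 (-0.37 ± 0.08).

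The chaperone genes themselves were not called between inhibitor and agent alone. Of 11 HSP90 and heat shock genes, 9 rose after PAO (11.9% of all genes), among them Hsp90aa1 (1.18 ± 0.18), and 3 rose after CEES (17.8%). With SNX-5422, 0 were called after PAO (5.96% of all genes, median -0.070) or after CEES (7%, median 0.0053). At an unadjusted p under 0.05 stood Hspa1a and Hspa1b in SNX-5422+PAO against PAO (-0.67 and -0.51, adjusted p = 0.132 and 0.0785), a near-identical pair whose reads cannot be assigned with certainty.

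The 3 family genes with the widest range of group means were Ereg, Areg and Btc (2.48, 2.24 and 1.61 on the log2 scale). The genes most like each were sought among 12206 others by the root mean square difference of log2 CPM, each centred on its own mean over the 15 libraries. Chil1 (difference 0.185), Tgm1 (0.287) and Ptk6 (0.296) were nearest to Ereg. Tgm1, the transglutaminase that cross-links the cornified envelope, averaged 67.9 CPM in SNX-5422+CEES, 52.5 in CEES, 11.2 in SNX-5422+PAO, 23.1 in PAO and 38.0 in control skin, so that, as with Ereg, SNX-5422+CEES was highest and SNX-5422+PAO lowest. Nearest to Areg were Nxpe5 (0.332), the platelet and endothelial integrin gene Itgb3 (0.346) and the matrix gene Thbs2 (0.347). Nearest to Btc were Susd2 (0.25), the epidermal ceramidase gene Acer1 (0.252) and Skint3 (0.260), of which Acer1 averaged 12.6 CPM in SNX-5422+CEES, 14.1 in CEES, 9.30 in SNX-5422+PAO, 8.88 in PAO and 27.5 in control skin. These likenesses describe the same 15 libraries and carry no test.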

How the data were processed

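Whole-skin RNA-seq was deposited as 1 table of raw read counts per gene for 15 libraries. Total RNA came from an Aurum kit and Ribo-Zero Gold depletion, per the labels. The tools bcl2fastq 2.18.0.12, Trim Galore 0.6.7, STAR 2.7.10a and HTSeq 2.0.2 and the build GRCm39 are named, without their settings, per the submitters' processing notes. Neither annotation release nor strand setting is known here, so overlapping genes on opposite strands are uncertain. The deposited counts were used as they are, without the 5 summary entries (no feature 35.2 to 46.9%, ambiguous 2.08 to 2.53%, not unique 4.78 to 9.76% of a library). Library totals were 16838212 to 28887367 reads on genes. Symbols were matched by Ensembl identifier (52093 of 53700), and the reference, of build GRCm38, served for names and promoter sequences only.

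edgeR 4.0.16 (R 4.3.3) fitted a quasi-likelihood model with a mean per group to all 15 libraries (TMM, filterByExpr, 22529 genes, 10 residual degrees of freedom). Adjusted p is Benjamini-Hochberg over all genes tested, called under 0.05, and SEs come from the F statistic. Groups come from the titles; SNX-5422+CEES titles all carry number 1 and were numbered in record order. Replicates differed beyond counting noise (chi-square per degree of freedom 6.99 to 50.2). Alternatives were other scalings, no filter, DESeq2 1.42.0, covariates, only the groups compared, a replicate block and leaving out each library. All 10 members were named. From each pathway list up to 2 raised and 2 lowered genes with the smallest p among those called in each of the 4 main comparisons could be named; Hspa1a, Hspa1b and Adam17 were named after their values were seen. Likeness used log2 CPM with a prior count of 2, among genes averaging at least 5 CPM in a group with an ordinary symbol. Members and lists were chosen with earlier results of these data known. The fit was tested on simulated data for PAO against control, in which 200 of 22691 genes changed, in the PAO group alone. The real comparison called 4607 of 22529 genes, so recovery there may differ. Of 100 genes changed by 1 on the log2 scale 53 were recovered, and 52 of the 66 with at least 50 reads on average. For a change of 2 these were 72 of 100 and 55 of 55, with 7 false calls.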

Additional observations from a re-analysis of the deposited data

Results flagged for a closer look

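The effect of SNX-5422 on Ereg, the epiregulin gene, differed between the agents by the test of the difference itself: the change in SNX-5422+CEES against CEES minus that in SNX-5422+PAO against PAO was 1.71 ± 0.32 on the log2 scale (SE, adjusted p = 0.0231). Ereg averaged 8.10 ± 1.11 CPM in SNX-5422+CEES and 5.96 ± 0.884 CPM in CEES skin, and 1.39 ± 0.372 CPM in SNX-5422+PAO and 3.36 ± 0.0899 CPM in PAO skin (SD, n = 3 each). All 3 SNX-5422+PAO libraries were below the PAO libraries, a fall that was called (-1.27 ± 0.25, adjusted p = 0.00678). All 3 SNX-5422+CEES libraries were above the CEES libraries, but by a small margin. The lowest SNX-5422+CEES library had 6.87 CPM and the highest CEES library 6.86 CPM. SNX-5422+CEES against CEES was not called (0.44 ± 0.20, adjusted p = 0.232). The difference between the effects lay between 1.5 and 1.88 when single libraries were left out. Its call ended without PAO 3, SNX-5422+PAO 2, CEES 1, SNX-5422+CEES 2 or SNX-5422+CEES 3 (adjusted p = 0.0559 to 0.0687). Suprabasal keratinocyte markers summed to 3354 to 4865 CPM in SNX-5422+CEES and 2030 to 3756 CPM in CEES libraries, and to 988 to 1281 CPM in SNX-5422+PAO and 1304 to 1538 CPM in PAO libraries. Their part in the difference was not tested.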

How the results depend on the processing

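Of 40 called differences among the 80 that 10 genes and 8 comparisons give, 21 stayed called with the same direction under every alternative; 15 ended in a setting other than a left-out library and 13 without some library, and 12 of the others gained a call somewhere. The called direction turned once: Egfr in CEES minus PAO went to -0.034 with the muscle marker covariate. The causes were not tested.

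Counts of called genes out of 10 changed by over 1.5 times in these settings. Total counts gave 8 after PAO against 5, and 2 in SNX-5422+CEES against CEES instead of 1, where no filter and DESeq2 also gave 2 and the muscle covariate 0. For the difference between the inhibitor effects no filter and DESeq2 gave 2 instead of 1. In CEES against PAO both the mitochondrial and the muscle covariate gave 2 instead of 5, and in SNX-5422+PAO against control the mitochondrial covariate gave 3 instead of 6. With these covariates calls over all genes fell alike, to 1382 (mitochondrial) and 1466 (muscle) against 4255 in CEES against PAO, and to 1443 against 4356 in SNX-5422+PAO against control. Total counts gave 5776 calls over all genes against 4607 after PAO, with 4340 lowered against 1934. In SNX-5422+CEES against CEES total counts gave 1789 over all genes, no filter 2169, DESeq2 2072 and the muscle covariate 825, against 1576. For the difference of effects no filter gave 899 and DESeq2 660, against 166. Leaving out single libraries gave 5 to 7 after PAO, 7 to 9 after CEES, 4 to 5 in SNX-5422+PAO and 0 to 2 in SNX-5422+CEES against the agent alone, 4 to 7 and 5 to 8 for these groups against control, 4 to 6 in CEES against PAO and 0 to 2 for the difference of effects. Over all genes the same fits called 2953 to 4918 after PAO and 6169 to 7905 after CEES, of 23075 to 23321 tested. They called 566 to 1605 in SNX-5422+PAO and 806 to 1825 in SNX-5422+CEES against the agent alone. Against control these groups had 2427 to 5013 and 3267 to 5400. CEES against PAO had 2825 to 4467 and the difference of effects 41 to 404. The muscle share separates CEES from the other groups, so that covariate and CEES are hard to tell apart.

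Same-numbered libraries of different groups correlated little in their deviations from the group means, with 1 of 18 pairs above 0.1 (-0.104 to 0.103). Differently numbered pairs were not compared, so these values cannot show whether libraries were paired. With the replicate number as a block in the 12 numbered libraries 5 genes were called after PAO, 9 after CEES, 5 in SNX-5422+PAO against PAO, 5 against control and 4 in CEES against PAO; no paired analysis was possible for SNX-5422+CEES because its titles carry no separate numbers.

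Signs turned for values that were not called. In SNX-5422+PAO against control Tgfa went to -0.017 with upper-quartile scaling and -0.28 with total counts (-0.10 to 0.15 without single libraries), and Egfr to 0.021 with the muscle covariate. Total counts gave -0.092 for Egfr in SNX-5422+PAO against PAO (-0.017 to 0.13 without single libraries), -0.052 for Erbb2 in SNX-5422+CEES against CEES (-0.053 to 0.12), and 0.24 for Hbegf, 0.012 for Erbb2 and 0.15 for Erbb3 in CEES against PAO, where the mitochondrial covariate gave 0.088 for Hbegf. Total counts shifted the median of all genes by -0.21 after PAO, -0.33 in SNX-5422+PAO against control, -0.14 against PAO and 0.31 in CEES against PAO. With these shifts Egfr (-0.49) and Errfi1 (-0.57) were called in SNX-5422+PAO against control, Epgn (-0.47) and Egfr (-0.40) after PAO, and Areg (0.75) and Btc (1.04) in CEES against PAO. The muscle covariate gave -0.20 for Egfr after CEES, 0.057 for Tgfa, 0.20 for Egfr and 0.023 for Errfi1 in SNX-5422+CEES against CEES, and -0.0060 for Egfr against control. For the difference of inhibitor effects Epgn stood at -0.017 under RLE scaling and DESeq2 and -0.26 with the muscle covariate (-0.16 to 0.17 without single libraries), Btc at -0.0035 and -0.10 with the mitochondrial and muscle covariates (-0.21 to 0.25), and Egfr at 0.0072 with the muscle covariate. Depth limits Ereg, Btc and Areg, which had 17 to 328 reads per library.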

Other observations

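In comparisons not described above for the pathway lists, 8 of 11 HSP90 and heat shock genes were lower after CEES than after PAO and 0 were higher (9.02% and 9.86% of all genes; median log2 fold change -0.40). Of the 12 ERK-induced genes 3 were higher after CEES than after PAO and 0 lower (9.86% and 9.02% of all genes; median 0.21). Against control, 3 of the 12 ERK-induced genes were raised and 2 lowered in SNX-5422+PAO skin (10.7% and 8.66% of all genes), and 5 were raised and 2 lowered in SNX-5422+CEES skin (13.1% and 9.25%). Of the 11 HSP90 and heat shock genes, 7 were raised in SNX-5422+PAO (10.7% of all genes) and 2 in SNX-5422+CEES skin (13.1%) against control.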
